A study of Mus musculus with 10 samples.

Results

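Carboxylesterases are the enzymes that cleave ester bonds in drugs, prodrugs, triglycerides, cholesteryl esters and many dietary compounds, and the liver is their main site in the mouse. The 10 carboxylesterase genes described here are *Ces1b*, *Ces1c*, *Ces1d*, *Ces1e*, *Ces1f*, *Ces1g*, *Ces2a*, *Ces2e*, *Ces3a* and *Ces3b*. They were taken by name from the Ces1, Ces2 and Ces3 families, and all 10 had a row among the 12148 genes of the count table. They are not all of these families, as *Ces2c*, *Ces2g* and the pseudogene *Ces2d-ps* also had a row. All 10 passed the filter of at least 20 counts over the livers, which left 12147 genes to test. The rule that names them uses no measured value, though the members were chosen with earlier results of these data known.

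Whole livers came from wild-type, germ-free (GF) C57BL/6 mice, which are raised without any microbes. The GF+MEV group (n = 5 mice) received microbiota-derived extracellular vesicles (MEV), the small membrane particles that gut bacteria release, by mouth in repeated doses over several weeks. The vesicles had been purified from caecal content and stool of control specific-pathogen-free mice. The GF+PBS group (n = 5 mice) received phosphate-buffered saline, and both groups lacked a gut microbiota of their own. Neither group carried a transgene or deletion, each library held the RNA of a single mouse, and the age of the germ-free animals was not given in the sources used here. The libraries held between 15746119 and 20523649 counts, so each member rested on at least 983 counts in every liver. Levels are given as CPM, a gene's counts relative to the size of its library after scaling with TMM factors, and fold changes as log2 of GF+MEV over GF+PBS from edgeR's quasi-likelihood test. *Alb*, the albumin gene that defines hepatocytes, stood between 64586 and 80955 CPM in the GF+MEV livers and between 70779 and 83247 CPM in the GF+PBS livers. In whole liver, fewer cells of a type and less RNA per cell cannot be told apart.

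Within GF+PBS, some livers were closer to each other than others. The root mean square difference in log2 CPM over the 10 members was 0.0569 between replicates 1 and 3 and 0.0806 between replicates 4 and 5. It was 0.0951 to 0.222 for the remaining GF+PBS pairs and 0.122 to 0.190 for GF+MEV pairs. These alike livers were known from earlier results, and each called member is given below with them as separate samples and with each alike pair summed into 1 sample.

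Most carboxylesterases sit in the lumen of the endoplasmic reticulum, where a short tail at the end of the protein retains them, and the same enzymes that activate drugs also release fatty acids from stored triglyceride. In the liver, members of the family are known to act on stored lipid and on the output of very-low-density lipoprotein (VLDL), and not all in the same direction. Many of the genes are also known to respond to the xenobiotic receptors CAR and PXR. The genes form a tandem array on mouse chromosome 8, with the Ces1 genes on the minus strand (93056728 to 93337308 in GRCm38 for those with a row) and Ces2, Ces3 and Ces4 genes on the plus strand (104734003 to 105150109).

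The array grew by gene duplication, and its copies remain alike in sequence. The longest transcripts of *Ces3a* and *Ces3b* shared 95.4% of aligned bases, those of *Ces1b* and *Ces1c* 91.4% and those of *Ces2a* and *Ces2e* 81.4%. Of all 50-base words in its exons, *Ces3a* shared 25.6% with *Ces3b*, *Ces1b* shared 9.92% with *Ces1c* and *Ces2a* shared 16.3% with the pseudogene *Gm7208*. For *Ces1d*, *Ces1e*, *Ces1f*, *Ces1g* and *Ces2e*, at most 3.30% of 50-base words occurred in another gene. How the counting treated reads that fit several genes was not given in the sources used here, so the split within *Ces3a* and *Ces3b*, within *Ces1b* and *Ces1c*, and between *Ces2a* and *Gm7208* is uncertain.

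The likeness extends to the promoters. RefSeq promoter entries (GRCm38.p6) were present for 7 of the 10 members, and 4 are printed here: *Ces1b* and *Ces1g*, which were called lower in GF+MEV livers, *Ces1c*, whose promoter is a near copy of that of *Ces1b*, and *Ces3b*, which was not called. Each is printed 5′ to 3′ on the strand of its gene and ends before the first annotated exon base, with capitals for the searched motifs. The *Ces1b* stretch is chr8:93080018-93080267 on the minus strand, *Ces1c* chr8:93131284-93131533 on the minus strand, *Ces1g* chr8:93337309-93337459 on the minus strand and *Ces3b* chr8:105083505-105083752 on the plus strand.
Ces1b: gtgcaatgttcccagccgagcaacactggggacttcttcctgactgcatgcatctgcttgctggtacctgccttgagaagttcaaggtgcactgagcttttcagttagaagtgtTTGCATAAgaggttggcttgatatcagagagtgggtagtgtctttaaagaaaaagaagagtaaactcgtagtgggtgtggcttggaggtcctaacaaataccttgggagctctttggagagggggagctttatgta
Ces1c: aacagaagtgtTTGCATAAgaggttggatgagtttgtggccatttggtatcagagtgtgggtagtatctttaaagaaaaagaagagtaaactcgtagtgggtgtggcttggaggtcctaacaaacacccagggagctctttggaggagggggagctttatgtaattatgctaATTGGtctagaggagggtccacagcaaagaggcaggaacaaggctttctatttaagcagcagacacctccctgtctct
Ces1g: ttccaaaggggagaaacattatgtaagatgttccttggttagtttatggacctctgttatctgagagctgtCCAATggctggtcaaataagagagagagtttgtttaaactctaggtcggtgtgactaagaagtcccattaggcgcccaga
Ces3b: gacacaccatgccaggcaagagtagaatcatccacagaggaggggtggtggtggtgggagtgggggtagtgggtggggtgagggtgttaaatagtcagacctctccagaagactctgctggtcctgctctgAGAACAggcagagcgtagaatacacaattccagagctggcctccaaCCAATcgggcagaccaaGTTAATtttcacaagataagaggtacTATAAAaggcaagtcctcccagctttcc

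The search covered 7 motifs on both strands: the TATA box (TATAAA), the CCAAT box (CCAAT), the core of C/EBP sites (TTGCNNAA), and single recognition units of nuclear receptors (AGGTCA), the glucocorticoid receptor (TGTTCT), HNF1 (GTTAAT) and FOXO factors (GTAAACA). Of the 250 bases before each RefSeq start, only matches ahead of the first annotated exon base were kept for members. That left 151 bases for *Ces1g*, 248 for *Ces3b* and 173 for the *Ces1b* start at 93079940. Matches nearer to these starts were not counted. The *Ces1b* and *Ces1c* windows aligned over 144 bases, of which 137 were identical (95.1%), and both hold the C/EBP core TTGCATAA, 239 bases before the start of *Ces1c*. RefSeq gives *Ces1b* 2 starts, and the core lies 136 bases before the start used for the printed stretch (93080017) and 213 before the other (93079940). *Ces1c* also holds a CCAAT box on the opposite strand (ATTGG) 78 bases before its start, and *Ces1g* holds a CCAAT box 179 bases before its start. Within the bases counted, *Ces3b* is alone among the 7 in holding a TATA box, 30 bases before its start. It also holds a CCAAT box at 73 bases, the HNF1 unit at 56 bases and the glucocorticoid receptor unit on the opposite strand at 119 bases. The C/EBP core was found in 4 of the 7 members and in 10.8% of the promoters of 27025 genes, and the CCAAT box in 4 of the 7 and in 37.5%. The FOXO letters were found in 0 of the 7 and in 3.54% of all promoters. No match says only that these letters are not in the bases counted. The shares over all genes used the full 250 bases, so they are not on quite the same window as the members. Each match is a description of sequence and no evidence of binding.

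Of the 10 carboxylesterases, *Ces1b* and *Ces1g* were called lower in GF+MEV livers and none was called higher (edgeR, Benjamini-Hochberg adjusted p under 0.05 over all tested genes). That is 2 of 10, beside 3.52% of all 12147 genes called lower, 4.12% called higher and 7.64% called in either direction. At an unadjusted p under 0.05, 5 members were lower and 0 higher, and no share of all genes at that cutoff is given here. DESeq2 called 5 members lower and limma-voom 4, with 0 higher in either. Over all 12147 genes, DESeq2 called 544 lower and 657 higher, and limma-voom 429 lower and 517 higher. The log2 fold change was below 0 for 9 of 10 members with a median of -0.17, whereas 51.0% of all tested genes lay below 0 with a median of -0.0037. Among the 2634 genes that averaged 50 CPM or more, as all members did, 48.5% lay below 0, 98 were called lower and 188 higher. The members are paralogues that share reads and libraries, so they are not independent replicates of a change. The log2 fold changes of the members lay between -0.27 and 0.047.

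**Figure D1:**
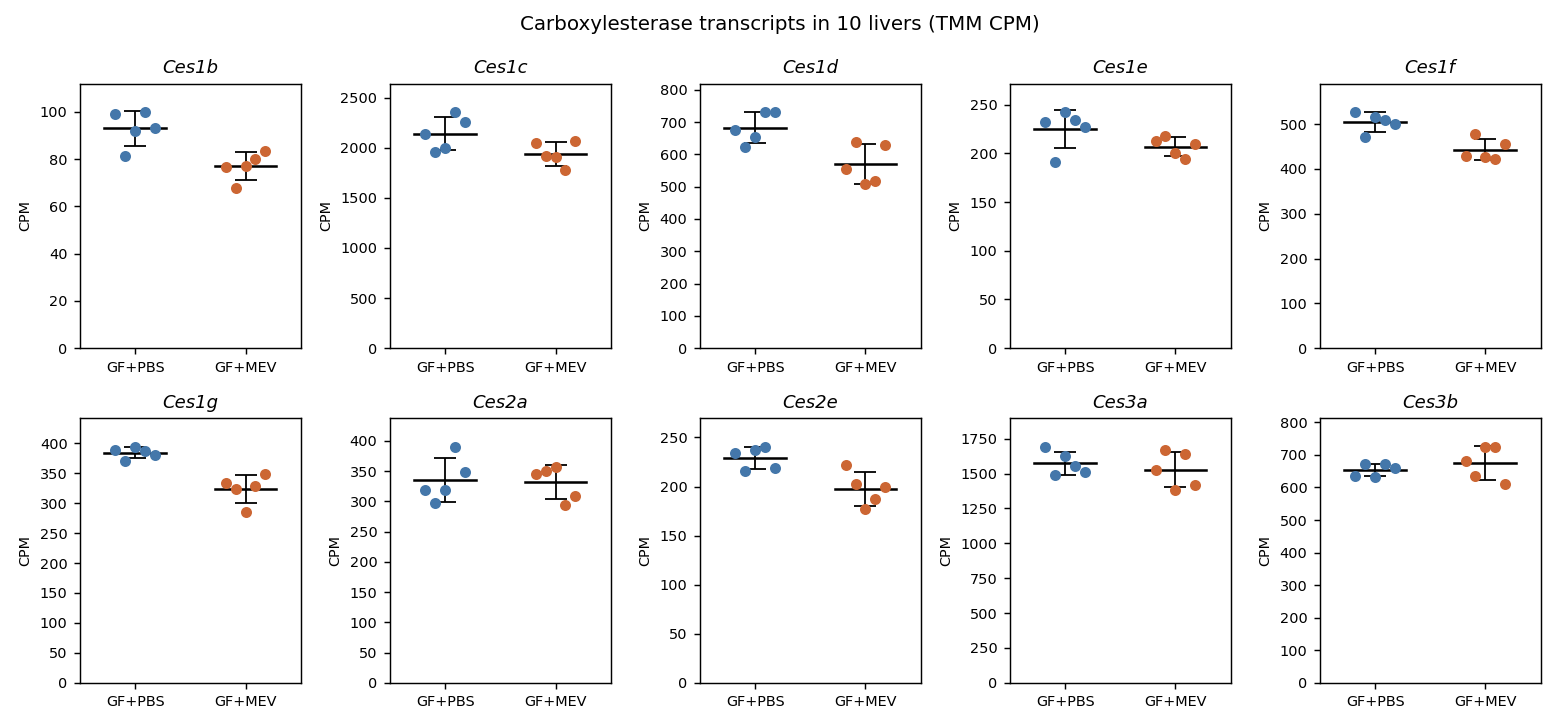
Level of each of the 10 carboxylesterase transcripts (CPM, y axis from 0) in the 5 GF+PBS and 5 GF+MEV livers. Each point is a liver, the long line is the group mean and the bars are the SD. For *Ces1g* every GF+MEV liver lies below every GF+PBS liver, and for the other 9 genes the groups overlap.

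*Ces1g* (ENSMUSG00000057074, chr8:93302369-93337308), which encodes a hepatic enzyme known to restrain lipid accumulation and VLDL output, was the member whose groups were fully apart. It measured 333, 323, 285, 329 and 348 CPM in GF+MEV replicates 1 to 5. In GF+PBS replicates 1 to 5 it measured 389, 371, 394, 386 and 381 CPM. The highest GF+MEV liver, replicate 5, thus lay below the lowest GF+PBS liver, replicate 2, a pattern that 3.45% of all tested genes showed in this direction. The group means were 324 ± 23.5 CPM (SD, n = 5) in GF+MEV and 384 ± 8.91 CPM (SD, n = 5) in GF+PBS, a log2 fold change of -0.25 (SE 0.051, edgeR adjusted p = 0.018). Expression fell by 15.8%, and the exact two-sided permutation p was 0.00794, the smallest that 5 against 5 allows. The spread among GF+MEV livers was wider, with a coefficient of variation of 7.27% against 2.32% in GF+PBS. With the alike GF+PBS livers summed, the log2 fold change was -0.23 with an edgeR adjusted p of 0.0896.

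*Ces1b* (ENSMUSG00000078964, chr8:93056728-93080017), the member with the lowest coordinates and the least abundant of the 10 per length, was the other member called lower. GF+MEV replicates 1 to 5 held 76.6, 67.8, 77.1, 79.8 and 83.5 CPM. GF+PBS replicates 1 to 5 held 98.9, 81.4, 91.8, 99.9 and 93.1 CPM. The groups overlapped through GF+PBS replicate 2 alone, which lay below GF+MEV replicate 5, while 4 of 5 GF+MEV livers lay below every GF+PBS liver. The means were 77.0 ± 5.81 CPM (SD, n = 5) in GF+MEV and 93.0 ± 7.41 CPM (SD, n = 5) in GF+PBS, a log2 fold change of -0.27 (SE 0.073, edgeR adjusted p = 0.0281, exact two-sided permutation p = 0.0159). This call was lost in several fits that left out 1 liver. The log2 fold change stayed between -0.34 and -0.23 over the 19 alternative fits. The adjusted p from edgeR was 0.0595, 0.0762 or 0.0566 without GF+MEV replicate 1, 2 or 3, and 0.0583, 0.0551 or 0.0782 without GF+PBS replicate 1, 3 or 4. With the alike GF+PBS livers summed the log2 fold change was -0.24 with an adjusted p of 0.138. *Ces1b* shares part of its sequence with *Ces1c*, whose level per length is far higher. The ratio of *Ces1b* to *Ces1c* counts within a liver was 0.0354 to 0.0450 in GF+MEV and 0.0414 to 0.0463 in GF+PBS.

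*Ces1d* and *Ces1f*, each described as a triglyceride hydrolase, had lower means in GF+MEV and did not pass the edgeR test. *Ces1d* (chr8:93166068-93197838) encodes triacylglycerol hydrolase, an enzyme that mobilizes stored triglyceride for VLDL. GF+MEV replicates 1 to 5 held 554, 638, 509.8, 518 and 630.5 CPM of *Ces1d*, and GF+PBS replicates 1 to 5 held 675, 624, 652, 729.9 and 732 CPM. GF+MEV replicates 2 and 5 lay inside the GF+PBS range and the other 3 lay below it. The log2 fold change was -0.26 (SE 0.082, edgeR adjusted p = 0.0551, exact two-sided permutation p = 0.0238), and the means were 569.9 ± 61.1 CPM in GF+MEV and 683 ± 47.6 CPM in GF+PBS (SD, n = 5 each).

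*Ces1f* (chr8:93256236-93279747), also described as a triglyceride hydrolase of the liver, showed a tighter spread. Its levels were 429.7, 478, 427, 423 and 456 CPM in GF+MEV replicates 1 to 5, and 527, 470.4, 517, 510.3 and 500.3 CPM in GF+PBS replicates 1 to 5. Only GF+MEV replicate 2 exceeded a GF+PBS liver, replicate 2. GF+MEV averaged 443 ± 23.7 and GF+PBS 505 ± 21.8 CPM (SD, n = 5 each), which gave a log2 ratio of -0.19 (SE 0.044, edgeR adjusted p = 0.0559, exact two-sided permutation p = 0.0159). *Ces1d* and *Ces1f* were called lower by DESeq2, with adjusted p of 0.0204 and 0.0123, and by limma-voom, with adjusted p of 0.0417 and 0.0404.

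*Ces1c* and *Ces1e* differed less. *Ces1c* (chr8:93099015-93131283) encodes the carboxylesterase that the liver secretes into mouse plasma, where it cleaves many ester prodrugs. It measured 2043, 1914, 1904, 1773 and 2066 CPM in GF+MEV replicates 1 to 5, and 2137, 1957, 2002, 2357 and 2252 CPM in GF+PBS replicates 1 to 5. GF+MEV replicates 2, 3 and 4 lay below every GF+PBS liver and the other 2 did not. Its log2 fold change was -0.14 (SE 0.064, edgeR adjusted p = 0.245). *Ces1e* (chr8:93201218-93229619) encodes egasyn, which holds beta-glucuronidase in the endoplasmic reticulum. Its levels were 213, 218, 201, 194 and 209 CPM in GF+MEV, and 232, 192, 243, 233.8 and 227 CPM in GF+PBS. GF+PBS replicate 2 was the lowest of all 10 livers and the other GF+PBS livers were above all GF+MEV livers, with a log2 fold change of -0.12 (SE 0.067, edgeR adjusted p = 0.311). *Gusb*, the gene of beta-glucuronidase, had 26.7 ± 1.93 CPM in GF+MEV and 22.8 ± 1.63 CPM in GF+PBS (SD, n = 5 each), with a log2 fold change of 0.23 (SE 0.064, edgeR adjusted p = 0.0777).

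The Ces2 enzymes prefer esters with a large alcohol group and a small acyl group. *Ces2e* (chr8:104926260-104934672) measured 222, 202, 177, 187 and 199 CPM in GF+MEV replicates 1 to 5, and 235, 216, 237, 241 and 219 CPM in GF+PBS replicates 1 to 5. GF+MEV replicate 1 lay inside the GF+PBS range and the other 4 below it. This gave a log2 fold change of -0.22 (SE 0.064, edgeR adjusted p = 0.061, exact two-sided permutation p = 0.0238), and DESeq2 called it with an adjusted p of 0.0295. *Ces2a* (chr8:104734003-104741634) held 295 to 358 CPM in GF+MEV (median 345) and 297 to 390.4 CPM in GF+PBS (median 319). Its groups lay over each other, with a log2 fold change of -0.015 (SE 0.088, edgeR adjusted p = 0.944) whose sign turned when GF+MEV replicate 4 or 5 or GF+PBS replicate 4 was left out. The ratio of *Ces2a* to *Ces2e* counts within a liver, which no scaling between libraries can move, was 1.55 to 2.02 in GF+MEV (median 1.57) and 1.34 to 1.62 in GF+PBS (median 1.38).

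The Ces3 pair stayed close to its level in GF+PBS. *Ces3a* (chr8:105048601-105058413) measured 1524, 1669.7, 1383, 1637 and 1421 CPM in GF+MEV replicates 1 to 5, and 1692, 1490.3, 1622, 1557 and 1512 CPM in GF+PBS replicates 1 to 5. *Ces3b* (chr8:105083753-105093929) measured 681, 636, 725, 725 and 611 CPM in GF+MEV, and 635, 672, 632, 671 and 659 CPM in GF+PBS. For *Ces3a*, 2 GF+MEV livers lay below every GF+PBS liver and none above. For *Ces3b*, 3 GF+MEV livers lay above every GF+PBS liver and 1 below. The log2 fold changes were -0.044 (SE 0.063, edgeR adjusted p = 0.767) for *Ces3a* and 0.047 (SE 0.053, edgeR adjusted p = 0.722) for *Ces3b*, and the sign for *Ces3b* turned to -0.026 with scaling by library totals alone. A p that misses the threshold does not show equal levels. *Ces3b* was the more spread in GF+MEV, with a coefficient of variation of 7.62% against 2.94% in GF+PBS. Because reads of these near-identical genes can be assigned to either, their ratio was also read within each liver. There were 0.381 to 0.524 *Ces3b* counts for each *Ces3a* count in GF+MEV and 0.375 to 0.451 in GF+PBS.

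**Figure D2:**
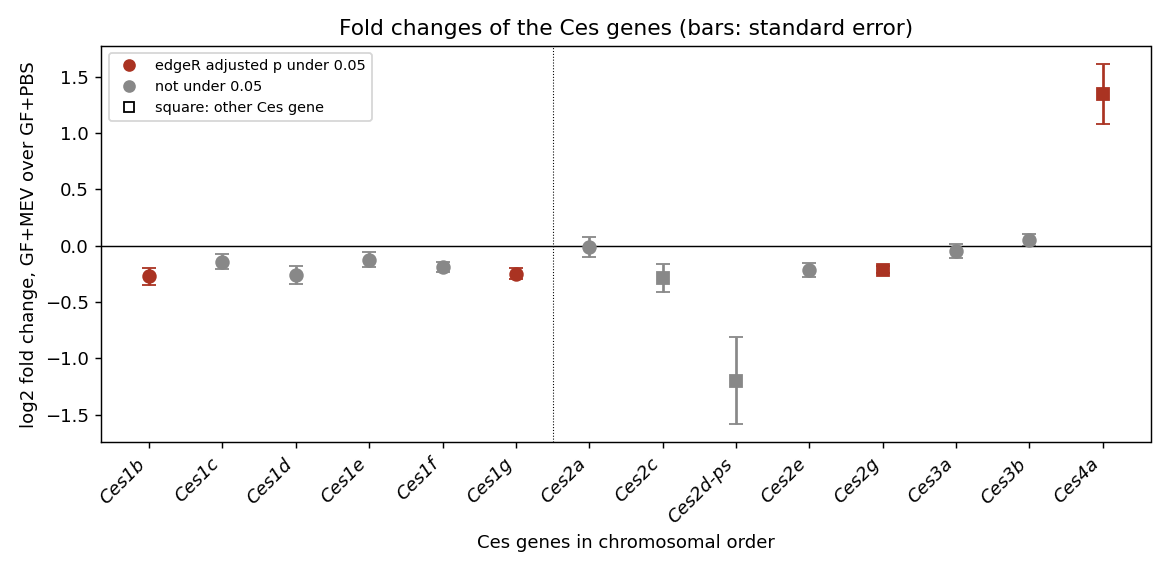
Log2 fold change of GF+MEV over GF+PBS (y axis) for the 14 Ces genes with a row, in chromosomal order, with bars of 1 standard error, circles for the 10 members, squares for the other 4 genes and a dotted line between the minus-strand and plus-strand groups. Red marks an edgeR adjusted p under 0.05, which *Ces1b*, *Ces1g* and *Ces2g* reach below 0 and *Ces4a* above 0.

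Summed by family, the Ces1 members made up 3561 ± 195 CPM in GF+MEV and 4031 ± 243 CPM in GF+PBS (SD, n = 5 each), with ranges of 3317 to 3794 and 3695 to 4317 CPM that overlap. The Ces2 members summed to 529 ± 34.5 and 564 ± 42.7 CPM, and the Ces3 members to 2203 ± 136 and 2229 ± 67.3 CPM. As a plain share of all counts with no scaling, the 10 genes took 0.578% to 0.628% in GF+MEV livers and 0.665% to 0.720% in GF+PBS livers. The share without scaling did not overlap, whereas the sum in CPM did, at 6046 to 6498 against 6370.4 to 7176 CPM. The TMM factors were 0.890 to 1.01 in GF+MEV, with replicate 2 the lowest, and 1.003 to 1.04 in GF+PBS, and a lower factor raises the CPM of a library. With upper-quartile factors or library totals alone, 5 members were called lower by edgeR (*Ces1b*, *Ces1d*, *Ces1f*, *Ces1g*, *Ces2e*), and the share of higher genes among all calls went from 53.9% to 41.2% and 32.5%.

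Per kilobase of exon, the levels of the 10 genes in GF+PBS livers spanned a wide range, and their order is a description with no test. *Ces1c* stood first at 921.5 ± 72.0 CPM per kb (SD, n = 5), followed by *Ces3a* at 599 ± 31.6, *Ces1d* at 288 ± 20.1 and *Ces3b* at 255 ± 7.50 CPM per kb. None of these first 4 overlapped with its neighbour over the GF+PBS livers. In the middle, *Ces1g* at 161 ± 3.73, *Ces1f* at 154 ± 6.63 and *Ces2a* at 142 ± 15.3 CPM per kb overlapped from each to the next. *Ces1e* at 103 ± 8.99 overlapped with *Ces2e* at 85.0 ± 4.21, and *Ces1b* was last at 47.4 ± 3.77 CPM per kb, below every liver of *Ces2e*. The first 4 and last 3 ranks were the same with the length of the longest transcript in place of all exons, while *Ces1f*, *Ces2a* and *Ces1g* then took ranks 5, 6 and 7.

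**Figure D3:**
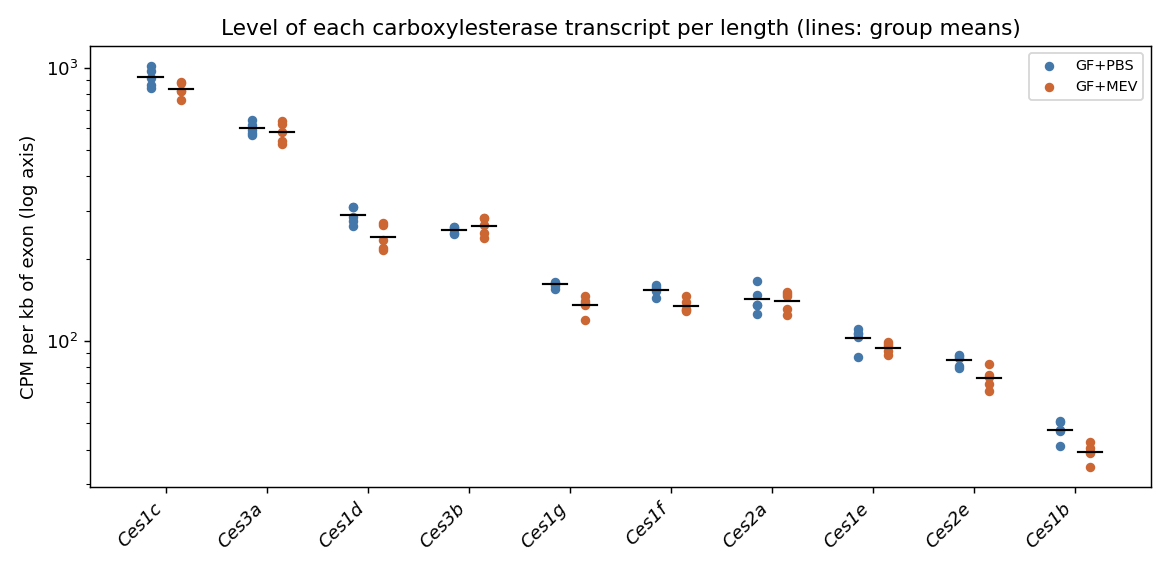
Level of each member per kilobase of exon (CPM per kb, log axis), ordered by the GF+PBS mean. Points are livers, blue for GF+PBS and orange for GF+MEV, and lines are group means. The plot runs from *Ces1c* at 921.5 to *Ces1b* at 47.4 CPM per kb in GF+PBS.

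The 10 members did not all vary together from mouse to mouse. With each group's mean removed, Pearson's r of log2 CPM over the 10 livers was above 0 in 33 of the 45 pairs of members, with a median of 0.34. It ran from -0.77 for *Ces1f* with *Ces3b* to 0.79 for *Ces1e* with *Ces1f*. Every pair of Ces1 members was above 0, the lowest at 0.12 for *Ces1b* with *Ces1f*. *Ces3b* was below 0 with every member but *Ces2a* (0.12). These values share libraries and scaling and are given as a description. Among 11817 genes outside the family with at least 1 CPM, the gene most like a member in this measure was *Serpina7* for *Ces1d* (r = 0.98), *Cpsf4* for *Ces1c* (0.97), *Uchl3* for *Ces1g* (0.97), *E4f1* for *Ces2a* (0.97) and *Fetub* for *Ces1f* (0.96). It was *Ryk* for *Ces2e* (0.96), *Gstp-ps* for *Ces3a* (0.95), *Plod1* for *Ces1b* (0.93) and *Wdr89* for *Ces1e* (0.93). None of these 9 likest genes was called between the groups by edgeR, and each was the best of the 11817 compared over few livers.

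The remaining carboxylesterase genes included the family's largest change. Of the 10 others looked for, 4 had a row, and *Ces1a*, *Ces1h*, *Ces2b*, *Ces2f*, *Ces2h* and *Ces5a* were not analysed here. *Ces4a* (ENSMUSG00000060560, chr8:105131800-105150109), the last gene of the array, rose in GF+MEV livers. It measured 5.61, 10.2, 9.27, 8.70 and 4.95 CPM in GF+MEV replicates 1 to 5, and 2.94, 4.09, 3.57, 2.58 and 2.04 CPM in GF+PBS replicates 1 to 5. Every GF+MEV liver lay above every GF+PBS liver. A log2 fold change of 1.35 resulted (SE 0.27, edgeR adjusted p = 0.0015, exact two-sided permutation p = 0.00794), on 34 to 192 counts per liver, and it was called in each of the 19 alternative fits. None of the 50-base words of *Ces4a* occurred in another gene.

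*Ces2g* (chr8:104961718-104969537) fell in GF+MEV. Its levels were 49.9, 48.2, 46.2, 46.5 and 51.0 CPM in GF+MEV replicates 1 to 5 and 57.3, 56.7, 54.0, 55.2 and 57.1 CPM in GF+PBS replicates 1 to 5, without overlap. The log2 fold change was -0.21 (SE 0.032, edgeR adjusted p = 0.0247, exact two-sided permutation p = 0.00794). Its call was lost without GF+MEV replicate 2, 3 or 4 (adjusted p of 0.0507, 0.0599 and 0.057), and with the alike GF+PBS livers summed (0.0811). *Ces2c* (chr8:104847068-104854483), an acylcarnitine and glyceride hydrolase of liver and gut, held 58.4 to 85.8 CPM in GF+MEV and 68.8 to 90.7 CPM in GF+PBS (log2 fold change -0.29, edgeR adjusted p = 0.121). The pseudogene *Ces2d-ps* had 1 to 6 counts per liver in GF+MEV and 4 to 15 in GF+PBS (log2 fold change -1.20, edgeR adjusted p = 0.169). Of its 50-base words 76.9% occur in other genes, so these few reads cannot be placed with confidence.

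Larger differences lay in poorly known transcripts inside the array, which were chosen for their position with their values known. Of the tested genes without a Ces name, 3 lie within the bounds of the minus-strand or plus-strand Ces genes, and all 3 were called lower. *Gm45724* (ENSMUSG00000110488, chr8:105051049-105051468) is a 420-base transcript of the annotation class TEC, which still awaits experimental proof, on the minus strand, opposite to *Ces3a* in its intron 4, with 1 base reaching into the next exon of the protein-coding transcripts. It measured 0.366, 0.552, 0.435, 0.281 and 0.193 CPM in GF+MEV replicates 1 to 5, and 2.83, 2.91, 4.76, 3.23 and 3.42 CPM in GF+PBS replicates 1 to 5. The groups were far apart, with 3 to 9 counts per GF+MEV liver and 51 to 80 per GF+PBS liver. This was a log2 fold change of -3.21 (SE 0.23, edgeR adjusted p = 1.4e-06, exact two-sided permutation p = 0.00794). For every 1000 counts of *Ces3a* in the same liver there were 0.136 to 0.331 counts of *Gm45724* in GF+MEV livers, against 1.67 to 2.93 in GF+PBS livers. Whether the counting used strand was not given in the sources used here, so reads from unspliced *Ces3a* RNA and from an antisense transcript cannot be told apart.

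The other 2 are pseudogenes that resemble Ces genes in sequence. The longest transcript of *Gm45727* aligned with that of *Ces1g* over 488 bases, of which 75.6% were identical. That of *Gm8798* aligned with *Ces2d-ps* over 608 bases, of which 93.4% were identical. *Gm45727* (chr8:93238653-93251175), between *Ces1e* and *Ces1f*, measured 1.16, 0.621, 1.11, 0.393 and 0.835 CPM in GF+MEV and 2.55, 2.52, 2.02, 2.48 and 1.26 CPM in GF+PBS. The groups did not overlap, though GF+MEV replicate 1 and GF+PBS replicate 5 were close (log2 fold change -1.38, SE 0.31, edgeR adjusted p = 0.0069). *Gm8798* (chr8:104886862-104902787), between *Ces2d-ps* and *Ces2e*, measured 0.488, 0.552, 0.724, 0.505 and 0.964 CPM in GF+MEV and 1.78, 1.79, 1.13, 1.92 and 2.88 CPM in GF+PBS. It too was without overlap (log2 fold change -1.54, SE 0.26, edgeR adjusted p = 0.0032), and 25.9% of its 50-base words occur in other genes, mostly *Ces2d-ps*. Of the 47 tested transcripts of the same annotation class as *Gm45724*, 6 were called lower and 1 higher. Of 63 tested unprocessed pseudogenes, 7 were called lower and 4 higher. Of tested genes beside the arrays, *Lpcat2* next to the Ces1 genes had a log2 fold change of -0.20, and *Ciao2b* and *Cbfb* next to the others had -0.20 and 0.27, none of them called (edgeR adjusted p from 0.332 to 0.698).

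**Figure D4:**
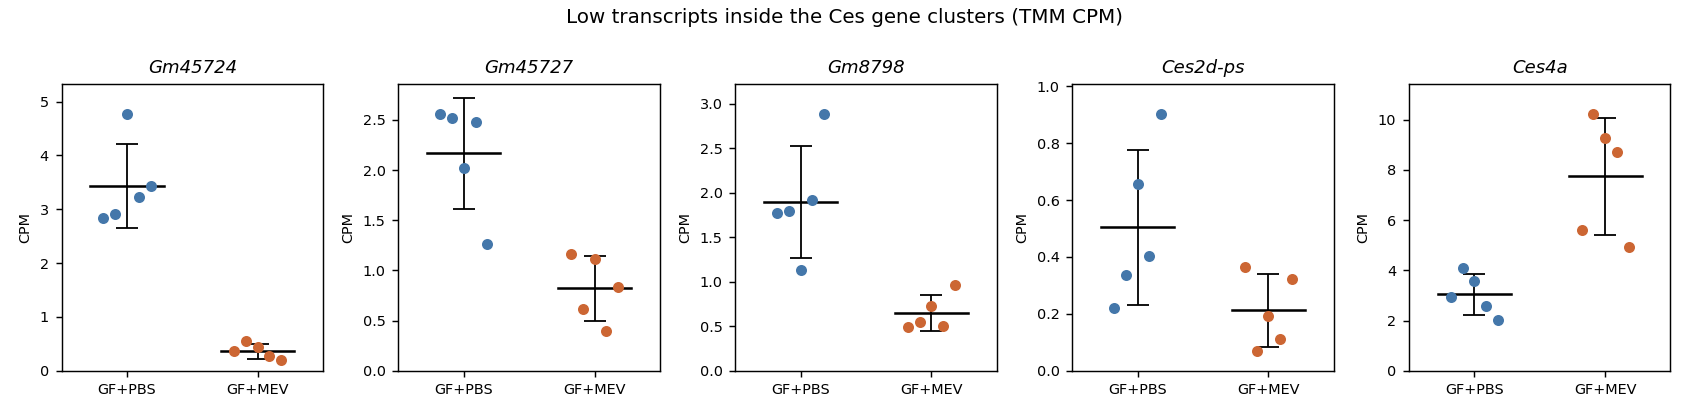
Levels (CPM, y axis from 0) of *Gm45724*, *Gm45727*, *Gm8798*, *Ces2d-ps* and *Ces4a*, low transcripts that lie within the carboxylesterase arrays, in the 5 GF+PBS and 5 GF+MEV livers, with points for livers, long lines for means and bars for the SD. The groups are apart for every gene but *Ces2d-ps*, with GF+MEV livers lower for the first 3 and higher for *Ces4a*.

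Genes that work beside the carboxylesterases were read from lists, by their counts alone. Over all 12147 tested genes, edgeR called 4.12% higher and 3.52% lower. DESeq2 called 657 of them higher and 544 lower, and limma-voom 517 higher and 429 lower. For the list counts at an unadjusted p, no share over all genes is given here. Among neutral lipid hydrolases, which share triglyceride as a substrate with the Ces1 enzymes, 20 of 21 were tested and 2 were called higher and 0 lower by edgeR, with a median log2 fold change of 0.037. At an unadjusted p under 0.05, 4 were higher and 2 lower, and DESeq2 called 3 higher and 1 lower. *Lipg*, which encodes endothelial lipase, measured 52.1, 41.3, 48.2, 35.1 and 51.1 CPM in GF+MEV replicates 1 to 5, and 13.9, 32.8, 17.7, 22.2 and 22.7 CPM in GF+PBS replicates 1 to 5. All GF+MEV livers were above all GF+PBS livers (log2 fold change 1.06, SE 0.23, edgeR adjusted p = 0.0019). *Pnpla2*, which encodes adipose triglyceride lipase, had 172 ± 12.2 CPM in GF+MEV and 140.2 ± 18.2 CPM in GF+PBS (SD, n = 5 each, log2 fold change 0.29, edgeR adjusted p = 0.0461), and it was called in 7 of the 19 alternative fits. Of 12 other esterases of drugs and acyl groups, such as the paraoxonases, none was called by edgeR, DESeq2 or limma-voom, 4 were lower at an unadjusted p under 0.05 and the median was -0.058. Of 16 genes of VLDL assembly, *Smlr1*, which is needed for the export of these particles, was called lower (log2 fold change -0.26, edgeR adjusted p = 0.029), with none called higher and a median of -0.016. At an unadjusted p under 0.05, 3 of the 16 were higher and 2 lower, and DESeq2 and limma-voom each called 0 higher and 1 lower. *Smlr1* was called in 11 of the 19 alternative fits. Its edgeR adjusted p was 0.116 with the alike GF+PBS livers summed, 0.051, 0.0734 or 0.072 without GF+MEV replicate 1, 3 or 4, and 0.063, 0.0749 or 0.0528 without GF+PBS replicate 1, 3 or 5. For *Pnpla2* it was 0.102, 0.0886, 0.0878 or 0.0811 without GF+MEV replicate 1, 2, 3 or 5, and 0.0954, 0.0699, 0.111 or 0.0576 without GF+PBS replicate 1, 2, 3 or 5.

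Of 18 nuclear regulators with a known link to carboxylesterase genes, 4 were called higher and 3 lower by edgeR, with a median of 0.070. Over all tested genes, 4.12% were called higher and 3.52% lower. At an unadjusted p under 0.05, 6 of the 18 were higher and 4 lower. DESeq2 called 5 higher and 3 lower, and limma-voom 4 higher and 3 lower. *Cebpb*, a C/EBP factor of the fasting and inflammatory responses, stood at 297 ± 29.2 CPM in GF+MEV and 73.9 ± 14.3 CPM in GF+PBS (SD, n = 5 each), with a log2 fold change of 2.004 (SE 0.14, edgeR adjusted p = 8.5e-08). *Foxo1* (log2 fold change 0.79, edgeR adjusted p = 0.0002) and *Hnf4a* (0.45, adjusted p = 0.00036) also rose. *Foxa2* fell by 1.49 on the log2 scale (edgeR adjusted p = 9.1e-07) and *Nfe2l2*, which encodes the antioxidant regulator NRF2, fell by 0.50 (adjusted p = 0.00037). The other 2 called were *Nr1i2*, the PXR gene, higher, and *Cebpa* lower. Of 18 CAR and PXR targets outside the family, 16 were tested, 1 was called higher and 3 lower by edgeR, and the median was -0.21. At an unadjusted p under 0.05, 2 of the 16 were higher and 7 lower. DESeq2 called 1 higher and 4 lower, and limma-voom 1 higher and 3 lower. *Alas1* rose (log2 fold change 1.51, edgeR adjusted p = 0.0113), while *Cyp2b9* (-3.01, adjusted p = 0.0037), *Cyp2c29* (-0.45, adjusted p = 0.0191) and *Aldh1a1* (-0.44, adjusted p = 0.0251) fell. Some of these calls ended with other samples. The edgeR adjusted p for *Cyp2c29* was 0.0877 with the alike GF+PBS livers summed and 0.0521 without GF+PBS replicate 3. That for *Aldh1a1* was 0.107 with the alike livers summed, 0.0654 without GF+MEV replicate 1, and 0.0511 or 0.0645 without GF+PBS replicate 1 or 3. The part of any of these in the levels of the carboxylesterases was not tested.

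Some cell type markers moved with the groups. Of 8 periportal hepatocyte markers, *Sds*, *Pck1*, *Arg1* and *Ass1* were called higher and none lower by edgeR. The other 4 were not called, and 1 of them, *Hal*, had a log2 fold change below 0. The sum of all 8 was 12842 to 14743 CPM in GF+MEV against 6666 to 9395 CPM in GF+PBS. *Pck1* alone held 6090 to 7769 CPM of it in GF+MEV and 1427 to 2995 CPM in GF+PBS. Of 8 pericentral markers, *Axin2* and *Rgn* were called lower, and 4 of the 8 lay above 0. The sum of all 8 was 12125 to 13752.5 CPM in GF+MEV against 13177 to 13658 CPM in GF+PBS. Of 7 general hepatocyte markers tested, *Cps1* was called higher, and their sums overlapped at 94197 to 113827 and 97160 to 114270 CPM. Among other cell types, *Krt19* of cholangiocytes and *Lyve1* of endothelial cells were called higher, and *Clec4g* of endothelial cells and *Cd79a* and *Cd79b* of B cells lower. The tested lymphocyte markers summed to 2.48 to 3.66 CPM in GF+MEV and 5.04 to 6.42 CPM in GF+PBS. None of the tested markers of macrophages (7), stellate cells (7), skeletal muscle (4), erythroid cells (5), enterocytes (2), adipocytes (1) or pancreatic acinar cells (1) was called by edgeR, DESeq2 or limma-voom, and 1 stellate cell and 1 skeletal muscle marker were lower at an unadjusted p under 0.05. Their part in the carboxylesterase levels was not tested.

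**Figure D5:**
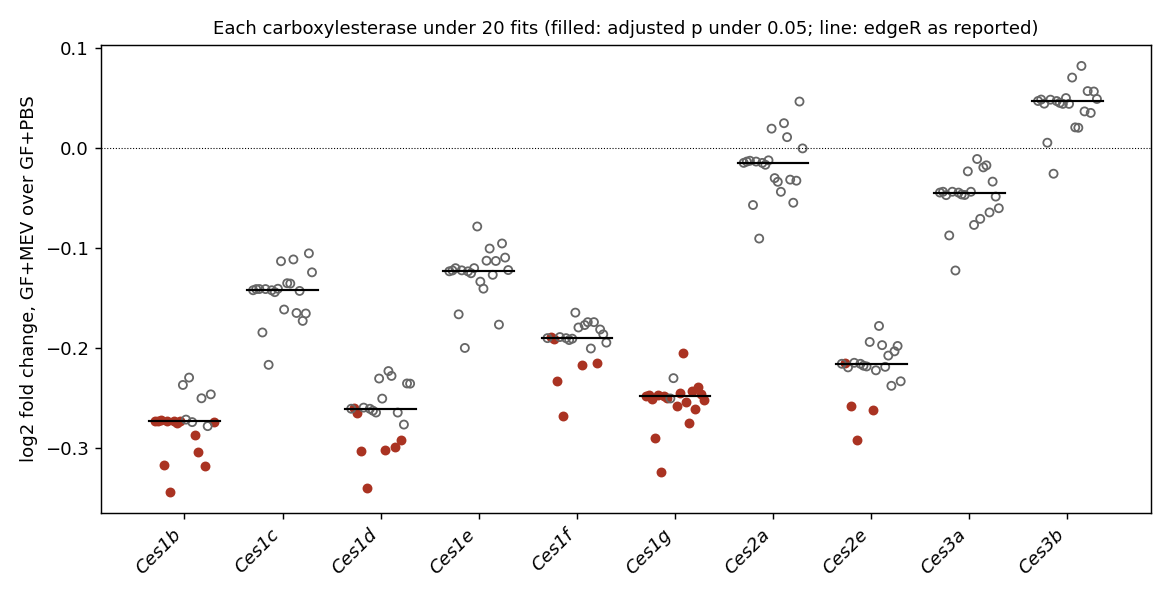
Log2 fold change of GF+MEV over GF+PBS (y axis) of each member in 20 fits, the edgeR fit as reported (line) and 19 alternatives, with filled red points for an adjusted p under 0.05 and open points otherwise. *Ces1g* is called in 17 and *Ces1b* in 12 of the 19 alternatives, *Ces1d* in 7, *Ces1f* in 6 and *Ces2e* in 4, and no fit calls *Ces1c*, *Ces1e*, *Ces2a*, *Ces3a* or *Ces3b*.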

How the data were processed

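Total RNA of whole liver from 10 germ-free mice was sequenced on an Illumina HiSeq, 1 library per mouse. The authors deposited raw read counts per Ensembl gene, made by alignment to GRCm38 with STAR 2.7.3a in 2-pass mode and counting with HTSeq, without genes that had fewer than 20 counts over all samples. The annotation release and the HTSeq settings for strand and multi-mapping reads were not given in the sources used here. The table also held 5 columns that match no described sample, and these were not used. Reads per gene are limited in precision by depth, and the libraries held 15746119 to 20523649 counts.

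Gene symbols, positions and exon lengths came from a GENCODE annotation of GRCm38, in which 5 identifiers had no symbol. Promoter sequences came from RefSeq (GRCm38.p6), and protein sequences were not used here. Genes with at least 20 counts over the 10 livers were normalized with TMM factors and compared with edgeR 4.0.16 in R 4.3.3 (glmQLFit and glmQLFTest, group alone, two-sided), with Benjamini-Hochberg adjustment over all 12147 genes and a threshold of 0.05. A prior count of 2 was added before log2 CPM, which gave the standard errors. Single genes were also compared by exact permutation tests of 5 livers against 5. The 5 livers of a group were taken as separate animals. No library was a copy of another, as the 20 pairs within groups had a chi-square of 6.36 per gene or more.

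The genes named are the 10 members, the other Ces genes with a row, up to 5 called genes by smallest p of each list, *Gusb*, genes whose exons overlap a member and the likest gene of each member. The likest gene of *Ces3b* is not reported here. *Nr1i2*, *Cebpa*, *Alb*, the pseudogenes *Gm45727*, *Gm8798* and *Gm7208*, and the neighbours *Lpcat2*, *Ciao2b* and *Cbfb* fall outside that rule and were added with their values known. The members and lists were chosen with earlier results of these data known.

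The fits were tested on simulated data with known changes. edgeR recovered 9 of 67 genes changed by 0.3 on the log2 scale (9 of 43 at 10 CPM or more). It recovered 40 of 67 at 0.5 and 58 of 66 at 1, with 6 false calls. At 0.3, DESeq2 recovered 17 of 67 and limma-voom 10 of 67. The changes of all members were smaller in size than 0.3, so a true change of that size can go uncalled. Alternatives were DESeq2 1.42.0, limma-voom (limma 3.58.1), upper-quartile, RLE or library total scaling, no low-count filter or a minimum of 10 counts in each library, replicate numbers as a block, alike GF+PBS livers summed, each liver left out in turn, and, for levels, the longest transcript.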

Additional observations from a re-analysis of the deposited data

How the results depend on the processing

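The number of members called lower, 2 with edgeR, was 5 with DESeq2, 4 with limma-voom, 5 with upper-quartile factors, 5 with library totals alone, and 0 with the alike GF+PBS livers summed. Leaving out 1 liver at a time gave 1 to 4. It was 2 with RLE factors and with both filters on low counts, and no alternative called a member higher. The number of all genes called was 928 as reported, 1201 with DESeq2 and 946 with limma-voom. With upper-quartile factors it was 1040, and with library totals alone 1023. Summing the alike livers gave 561, and leaving out 1 liver gave 696 to 926. The replicate numbers did not pair the livers: over the 500 most variable genes, deviations of same-numbered livers correlated at -0.14 to 0.16, and 1 of 5 GF+MEV livers correlated best with its own number. With the replicate numbers as a block, 1 member (*Ces1b*) was called lower and 792 genes were called in all. The log2 fold changes were then -0.25 for *Ces1g* (edgeR adjusted p = 0.0557) and -0.21 for *Ces2g* (0.0663), both no longer called, as were *Pnpla2* (0.0942), *Smlr1* (0.058) and *Aldh1a1* (0.0507). The sign turned for *Ces3b*, to -0.026 with library totals alone, and for *Ces2a*, to 0.019 with the alike livers summed, 0.025 without GF+MEV replicate 4, 0.011 without GF+MEV replicate 5 and 0.047 without GF+PBS replicate 4, within a range of -0.055 to 0.047 over the livers left out. The other 8 members were lower in GF+MEV in all 19 alternatives, and *Ces4a*, *Gm45724*, *Gm45727* and *Gm8798* kept their direction and call in every alternative that tested them. The cause of these changes was not tested. Depth limits the transcripts with few counts: with under 10 counts per GF+MEV liver, the level of *Gm45724* in that group is known only roughly.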
